A study of Mus musculus with 8 samples.

Results

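The genes described here are the 4 Notch receptors (Notch1, Notch2, Notch3, Notch4), 4 of their ligands (Jag1, Jag2, Dll1, Dll4) and 2 target genes of the Hey family (Hey1, Heyl). They were chosen by gene name, with earlier results of these data known, and make up 10 of the 55679 rows of the deposited expression table. Notch receptors are bound by ligands on a neighbouring cell. They are then cut by the protease ADAM10 and by γ-secretase, and the freed intracellular domain enters the nucleus, where it joins RBPJ and a Mastermind-like protein on genes such as Hey1 and Heyl. In the heart and its vessels the pathway is best known from endothelium and endocardium, where Notch1, Notch4 and Dll4 are expressed, and from smooth muscle cells and pericytes, where Notch3 and Heyl are expressed.

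Messenger RNA was measured in the left ventricle of wild-type C57BL/6J male mice. The control group (n = 4) received saline, and the hypertensive group (n = 4) received the pressor peptide angiotensin II (ANG II) at 1500 ng/kg/min, both for 7 days from osmotic mini-pumps under the skin. No group carried a transgene or a deletion, and ages were not given in the sources used here. The question addressed was which of these genes differed between ANG II and control. Values are FPKM (fragments scaled by transcript length and by the depth of the library), and the fragments behind each value were recovered from the steps between low values.

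The 8 libraries held 14455700 to 16564950 fragments each, and the fewest fragments behind a value of the 10 genes were 86 (Dll1 in control 4). Of 19364 genes tested with limma, 2708 were called higher and 273 lower in ANG II, a call being an adjusted p under 0.05 with an absolute log2 fold change above 0.5. The direction of these calls moved with the scaling of the libraries. The share of calls that were higher was 90.8% as deposited, 67.5% after median-of-ratios scaling (1671 higher and 804 lower) and 58.9% after quantile normalization. It was 78.7% when the libraries were set to a common total without the 10 most abundant genes and those encoded in mitochondria. Mitochondrially encoded genes took 26.3 to 27.0% of the fragments in control and 19.2 to 21.8% in ANG II. The median log2 fold change over all genes tested was 0.15 as deposited and 0.0025 after median-of-ratios scaling, so changes are also given as the distance from that median of 0.15. The tissue was measured whole, so fewer cells of a type and less RNA per cell cannot be told apart. Genes of heart muscle were present in every library: the 8 cardiomyocyte markers summed to between 26153 and 36414 FPKM. These markers were not chosen to tell ventricle from atrium. The extraction protocol in the labels speaks of “CRC cells”, which is not the labelled tissue.

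Jag1, Notch3, Hey1 and Heyl were called higher in ANG II, and none of the 10 genes was called lower. The 4 calls of 10 stand beside a background of 14.0% of all genes tested that were called higher and 1.41% that were called lower. That background includes genes of low level. With the filter raised to 1 FPKM, 2675 of 12947 genes were called in either direction, a larger share than 2981 of 19364, and the calls among the 10 stayed at 4. Notch2 also had an adjusted p under 0.05 but a log2 fold change under 0.5, which made 5 of 10 by adjusted p alone, where 28.4% of all genes tested were higher by that criterion. In 5 of the 10 genes (Notch2, Notch3, Notch4, Jag1 and Heyl) every ANG II library lay above every control library, as in 28.7% of all genes tested. The median log2 fold change of the 10 genes was 0.32. Under median-of-ratios scaling only Jag1 kept its call, which is 1 of 10 beside 8.65% of all genes tested. Jag1 was also the gene called after quantile normalization, where 7.30% of all genes tested were called higher. Without mitochondrially encoded and the top 10 genes, Jag1 and Heyl were called, beside 10.2% of all genes tested.

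**Figure D1:**
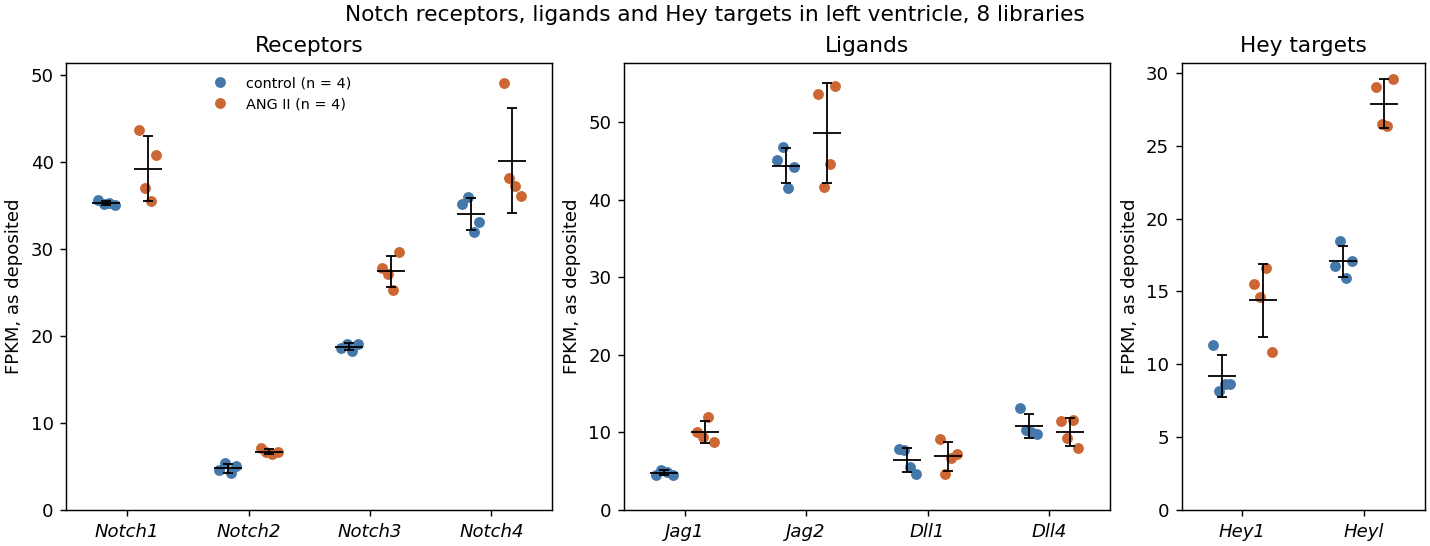
FPKM as deposited (linear axis from 0) of the 4 receptors, 4 ligands and 2 Hey targets in each of the 4 control (blue) and 4 ANG II (orange) libraries; black bars give the mean and SD of each group. The ANG II points of Notch3, Jag1 and Heyl lie clear of the control points, whereas those of Jag2, Dll1 and Dll4 are interspersed with them.

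The set of promoter sequences used here held windows for 8 of the 10 genes and not for Hey1 and Heyl. The windows of the called receptor and of the called ligand are shown because both transcripts were called higher in ANG II, and that of Hey2, another Hey gene, is shown for contrast, since it holds the longest word searched. Each window is RefSeq sequence of GRCm38.p6, 300 bases from 250 before to 50 after the transcription start, printed 5′ to 3′ on the strand of the gene, with matches to GTGGGAA on either strand in capitals. The window of Jag1 is chr2:137116471-137116770 (minus strand), that of Notch3 is chr17:32166841-32167140 (minus strand) and that of Hey2 is chr10:30842734-30843033 (minus strand).
Jag1: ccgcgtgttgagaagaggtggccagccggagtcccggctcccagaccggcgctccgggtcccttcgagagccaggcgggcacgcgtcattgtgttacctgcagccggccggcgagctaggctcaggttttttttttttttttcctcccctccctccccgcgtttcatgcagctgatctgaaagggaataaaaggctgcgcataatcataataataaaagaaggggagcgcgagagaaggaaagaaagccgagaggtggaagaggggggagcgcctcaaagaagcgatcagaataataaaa
Notch3: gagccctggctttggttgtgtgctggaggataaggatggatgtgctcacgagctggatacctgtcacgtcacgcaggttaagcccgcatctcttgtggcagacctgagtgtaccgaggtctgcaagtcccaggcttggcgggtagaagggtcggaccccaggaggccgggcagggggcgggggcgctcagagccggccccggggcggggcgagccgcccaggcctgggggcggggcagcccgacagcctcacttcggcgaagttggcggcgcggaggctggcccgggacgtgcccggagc
Hey2: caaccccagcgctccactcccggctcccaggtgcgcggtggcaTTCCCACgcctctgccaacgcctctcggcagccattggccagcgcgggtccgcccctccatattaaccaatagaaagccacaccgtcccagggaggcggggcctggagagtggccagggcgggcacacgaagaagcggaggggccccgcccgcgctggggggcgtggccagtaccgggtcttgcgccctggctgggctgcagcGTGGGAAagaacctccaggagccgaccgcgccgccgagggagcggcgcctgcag
The words TGGGAA and GTGGGAA, which contain the core that RBPJ recognises (the second holds the first), and the E-box CACGTG were searched on both strands. None of the 8 genes with a window held any of the 3 words there. Of all 32851 promoter windows, 25.6% held TGGGAA, 6.38% held GTGGGAA and 7.15% held CACGTG. The Hey2 window held GTGGGAA 2 times, at positions 44 and 247 counted from 1 at the 5′ end of the window, and that of Hes5 held it 2 times as well. A match is a description of these letters and says nothing of binding, and the absence of a match covers this window only.

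Of the receptors, Notch3 rose. Notch3 (ENSMUSG00000038146, chromosome 17, 32120820 to 32166852, GRCm38) is the receptor known from smooth muscle cells and pericytes. Its control libraries were at 18.7, 19.1, 18.3 and 19.1 FPKM and its ANG II libraries at 27.8, 27.1, 25.3 and 29.6 FPKM. The highest control library was thus below the lowest ANG II library, and the control values lay close together. The means were 18.8 ± 0.378 and 27.5 ± 1.78 FPKM (SD, n = 4 each). By limma the log2 fold change was 0.52 (SE 0.059, adjusted p = 0.00016), which is 0.38 above the median of all genes. The fold change was just past the threshold, and the call was lost without ANG II 4 (0.49) and under each of the 3 other scalings (0.30 to 0.38), where the adjusted p was at most 0.00382.

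Notch2 (ENSMUSG00000027878, chromosome 3, 98013527 to 98150361) was at 4.55, 5.35, 4.23 and 5.09 FPKM in control and at 7.12, 6.62, 6.39 and 6.70 FPKM in ANG II. All ANG II libraries lay above all control libraries. Its log2 fold change was 0.41 (SE 0.089, 95% interval 0.21 to 0.61, limma adjusted p = 0.00573), short of the fold change threshold. The adjusted p was no longer under 0.05 after median-of-ratios scaling (0.22, adjusted p = 0.0953) or quantile normalization (0.10, adjusted p = 0.413), and was 0.0407 without mitochondrially encoded and the top 10 genes (0.29). Of its exon bases, 5.02% lay under another gene of the same strand, Gm42820, and 3.76% of its 50-base words also occurred in transcripts of other genes.

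Notch4 and Notch1, the receptors known from endothelium, were not called. Notch4 (ENSMUSG00000015468, chromosome 17, 34564268 to 34588503) was at 35.1, 36.0, 32.0 and 33.0 FPKM in control and at 49.1, 38.1, 37.3 and 36.1 FPKM in ANG II. The groups only just did not overlap, and ANG II 1 stood apart from the other 3 ANG II libraries. Its log2 fold change was 0.22 (SE 0.093, 95% interval 0.01 to 0.43, limma adjusted p = 0.0959), and 0.12 without ANG II 1. Notch1 (ENSMUSG00000026923, chromosome 2, 26457903 to 26516663) was at 35.6, 35.2, 35.3 and 35.0 FPKM in control and at 43.7, 37.0, 35.5 and 40.8 FPKM in ANG II. The control libraries of Notch1 differed by less than 1 FPKM while the ANG II libraries ranged widely, and the groups overlapped at ANG II 3. Its log2 fold change was 0.15 (SE 0.067, limma adjusted p = 0.125) and equalled the median of all genes. It was 0.09 without ANG II 1. Without ANG II 3 the adjusted p was 0.046 at a log2 fold change of 0.19. Under median-of-ratios scaling the log2 fold change of Notch1 was -0.08 and that of Notch4 was -0.00063.

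Of the ligands, only Jag1 was called, and its fold change was the largest of the 10 genes as deposited. Jag1 (ENSMUSG00000027276, chromosome 2, 137081456 to 137116644) encodes Jagged1, a ligand of the Serrate type found in endothelium and in smooth muscle. Its control libraries were at 4.52, 5.19, 4.91 and 4.51 FPKM and its ANG II libraries at 10.05, 9.39, 12.0 and 8.74 FPKM. The lowest ANG II library was well above the highest control library, and ANG II 3 was the highest. These values rested on 231 to 288 fragments in control and 494 to 642 in ANG II. The means were 4.78 ± 0.33 and 10.05 ± 1.41 FPKM (SD, n = 4 each), a ratio of 2.10, and the log2 fold change was 0.93 (SE 0.101, limma adjusted p = 0.000137), or 0.78 above the median of all genes. Jag1 stayed past both thresholds in all 17 alternatives of scaling, filter, pseudocount, test and library left out, with log2 fold changes from 0.64 to 1.06.

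Jag2, the other Serrate-type ligand (ENSMUSG00000002799, chromosome 12, 112907819 to 112929776), was at 45.2, 46.8, 41.5 and 44.2 FPKM in control and at 53.6, 41.7, 44.7 and 54.7 FPKM in ANG II. ANG II 1 and 4 were above all controls and ANG II 2 and 3 lay among them. Its log2 fold change was 0.12 (SE 0.089, 95% interval -0.08 to 0.32, limma adjusted p = 0.338). It was 0.07 without ANG II 1, 0.06 without ANG II 4 and 0.19 without ANG II 2.

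The Delta-like ligands were not called. Dll4 (ENSMUSG00000027314, chromosome 2, 119325784 to 119335962), known from arterial endothelium and from the tips of growing vessels, was at 13.1, 10.4, 10.1 and 9.84 FPKM in control and at 11.5, 9.29, 11.6 and 7.95 FPKM in ANG II. The groups overlapped, with control 1 the highest and ANG II 4 the lowest. Its log2 fold change was -0.10 (SE 0.130, 95% interval -0.39 to 0.19, limma adjusted p = 0.581), the lowest of the 10 genes as deposited. It was -0.0059 without ANG II 4, -0.02 without control 1, -0.17 without ANG II 1 and -0.17 without ANG II 3. Dll1 (ENSMUSG00000014773, chromosome 17, 15367354 to 15376872) was at 7.92, 7.67, 5.50 and 4.70 FPKM in control and at 9.16, 4.61, 6.69 and 7.22 FPKM in ANG II. Both the highest and the lowest of its values were ANG II libraries. Its log2 fold change was 0.08 (SE 0.198, 95% interval -0.36 to 0.53, limma adjusted p = 0.786), the widest interval of the 10 genes, on 86 to 166 fragments per library. Dll1 is also uncertain because 20.5% of its exon bases lay under a gene of the opposite strand, A930024N18Rik, and the use of strand in counting was not given in the sources used here. That share was 9.76% for Notch1, 6.03% for Notch3, 5.56% for Dll4 and 0 for the other 6 genes.

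Both Hey targets were called higher. Heyl (ENSMUSG00000032744, chromosome 4, 123233556 to 123249875) encodes a basic helix-loop-helix repressor found in smooth muscle cells and pericytes. It was at 16.8, 18.5, 15.9 and 17.1 FPKM in control and at 29.1, 26.5, 26.4 and 29.6 FPKM in ANG II. The groups were far apart, with ANG II 1 and 4 the highest. The means were 17.1 ± 1.06 and 27.9 ± 1.68 FPKM (SD, n = 4 each), a ratio of 1.63, and the log2 fold change was 0.68 (SE 0.066, limma adjusted p = 7.38e-05), or 0.53 relative to the median. It was 0.46 with median-of-ratios scaling and 0.45 with quantile normalization, below the threshold of 0.5, with adjusted p of 0.000465 and 0.000594.

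Hey1 (ENSMUSG00000040289, chromosome 3, 8663359 to 8667256), a repressor of the same family known from arterial endothelium and endocardium, was at 11.3, 8.14, 8.62 and 8.66 FPKM in control and at 15.5, 14.6, 16.6 and 10.8 FPKM in ANG II. The groups overlapped, since control 1 lay above ANG II 4. The means were 9.19 ± 1.44 and 14.4 ± 2.50 FPKM (SD, n = 4 each) and the log2 fold change was 0.59 (SE 0.136, limma adjusted p = 0.00822), or 0.44 relative to the median. The call held with any 1 library left out (0.52 to 0.71). It was lost under median-of-ratios scaling (0.38, adjusted p = 0.0649), under quantile normalization (0.34, adjusted p = 0.0973) and without mitochondrially encoded and the top 10 genes (0.45, adjusted p = 0.0311).

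**Figure D2:**
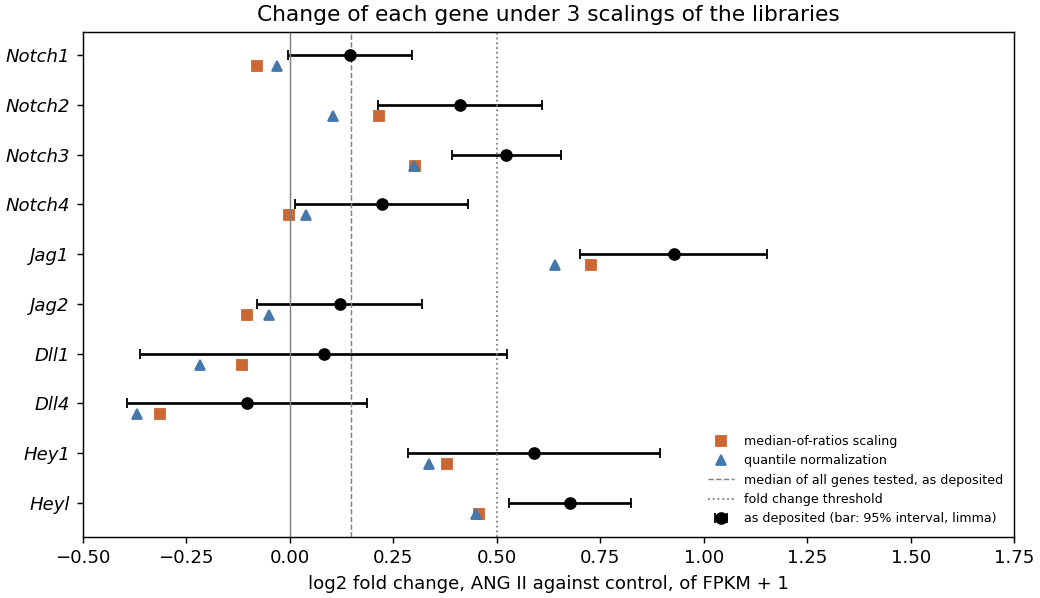
Log2 fold change of FPKM + 1, ANG II against control, of each of the 10 genes: black points with 95% limma intervals as deposited, squares after median-of-ratios scaling and triangles after quantile normalization, with the median of all genes (dashed, 0.15) and the threshold of 0.5 (dotted). Jag1 is the gene whose 3 points all lie past the threshold, while Notch3, Hey1 and Heyl pass it as deposited only.

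Ratios of 1 receptor or ligand to another within a library do not change when a whole library is multiplied by 1 factor, as in every scaling here but quantile normalization, so they were compared for all 13 pairs within a role. In 5 pairs the groups did not overlap. The log2 ratio of Jag1 to Dll4 went from -1.17 ± 0.25 to 0.0029 ± 0.141, that of Jag1 to Dll1 from -0.40 ± 0.35 to 0.57 ± 0.432, and that of Jag1 to Jag2 from -3.22 ± 0.113 to -2.28 ± 0.324 (SD, n = 4 each). The ratio of Notch1 to Notch3 fell by 0.40 and that of Notch1 to Notch2 fell by 0.34 on the log2 scale. For each of these 5 pairs the exact two-sided permutation p was 0.0286, the smallest that 4 against 4 libraries allow, and 0.0743 after Benjamini-Hochberg adjustment over the 13 pairs, so none passed 0.05. The other 8 pairs overlapped. Among them, the log2 ratio of Hey1 to Heyl was -0.90 ± 0.257 in control and -0.97 ± 0.334 in ANG II (exact permutation p = 0.771), and that of Notch2 to Notch3 was -1.97 ± 0.126 and -2.03 ± 0.0809 (exact permutation p = 0.457). These comparisons were added after the data had been seen.

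The levels of different genes depended on the transcript length behind the FPKM. The deposited values fell on whole fragments when multiplied by the mean length of all annotated transcripts of the gene. This held for 97.4% of values under 60 fragments, within 0.1 fragment, over 13994 genes with several transcripts whose mean length differs by more than 20% from that of the longest coding transcript. With the longest coding transcript 18.4% were whole, where 20.0% come out whole by chance. For Notch1 the mean was 1519 bases and the longest coding transcript 9488 bases, and for Notch4 these were 1547 and 6591 bases, and 2 of the 11 annotated Notch1 transcripts and 1 of the 12 of Notch4 are coding. Fold changes of 1 gene between groups do not depend on this length, apart from the pseudocount.

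As deposited, the receptors ranked in control Notch1 (35.3 ± 0.249 FPKM) and Notch4 (34.0 ± 1.84 FPKM), which overlapped, then Notch3 (18.8 FPKM) and Notch2 (4.81 ± 0.508 FPKM). With fragments divided by the longest coding transcript, the order was Notch4 at 7.99 ± 0.433, Notch3 at 7.33 ± 0.147, Notch1 at 5.65 ± 0.0398 and Notch2 at 2.84 ± 0.30 FPKM (SD, n = 4 each), with no overlap between neighbours. On that length in ANG II, Notch3 had a mean of 10.7 ± 0.695 FPKM and Notch4 of 9.43 ± 1.42 FPKM, which overlapped, above Notch1 at 6.28 ± 0.596 FPKM and Notch2 at 3.96 ± 0.18 FPKM. On either length, the share of Notch3 in the summed level of the 4 receptors was higher in ANG II and that of Notch1 lower, with no overlap. As deposited, Notch3 went from 20.2 ± 0.401% to 24.3 ± 1.86% and Notch1 from 38.0 ± 1.01% to 34.5 ± 0.983% (SD, n = 4 each). The shares of Notch2 and Notch4 overlapped between the groups on both lengths.

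Jag2 was the most abundant ligand on both lengths and Jag1 changed its place. As deposited, Jag1 (4.78 FPKM) overlapped in control with Dll1 (6.45 ± 1.59 FPKM) and lay below Dll4 (10.9 ± 1.55 FPKM), and in ANG II it lay at 10.05 FPKM beside Dll4 (10.1 ± 1.77 FPKM), which overlapped with it, as did Dll1 (4.61 to 9.16 FPKM). With the longest coding transcript, control levels were 9.83 ± 0.494 FPKM for Jag2, 6.43 ± 0.916 FPKM for Dll4, 3.01 ± 0.208 FPKM for Jag1 and 2.15 ± 0.532 FPKM for Dll1, again with no overlap between neighbours. The share of Jag1 among the 4 ligands went from 7.21 ± 0.644% to 13.4 ± 2.26% as deposited and from 14.1 ± 1.36% to 25.0 ± 3.08% with the longest coding transcript (SD, n = 4 each), with no overlap in either. The share of Dll4 was lower in ANG II without overlap with the longest coding transcript (29.9 ± 2.53% and 23.5 ± 3.02%) but overlapped as deposited. For the Hey targets, Heyl was above Hey1 on both lengths, at 6.94 ± 0.432 against 4.75 ± 0.745 FPKM in control and 11.3 ± 0.685 against 7.44 ± 1.29 FPKM in ANG II with the longest coding transcript. The comparison of lengths was chosen after the data had been seen.

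**Figure D3:**
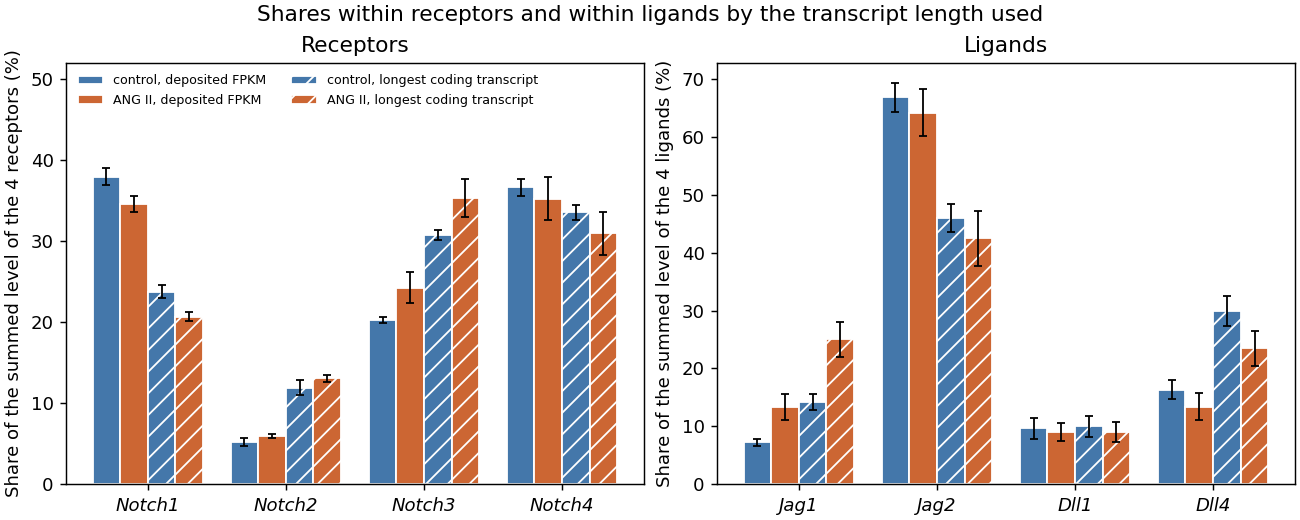
Share (%) of each gene in the summed level of the 4 receptors (left) and of the 4 ligands (right), as means with SD over 4 control (blue) and 4 ANG II (orange) libraries, with FPKM as deposited (plain bars) and with the longest coding transcript as length (hatched bars). The Notch3 and Jag1 shares are higher in ANG II on both lengths, although the height of the bars differs between lengths.

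Other genes of the pathway were taken from lists of 45 genes, of which 41 were tested. Of these, 6 were called higher and none lower, while 21 were higher and 1 was lower by adjusted p alone. Over all genes tested 14.0% were called higher and 28.4% were higher by adjusted p alone. The 6 calls among 41 were near the first share and the 21 by adjusted p above the second, neither of which was tested. Both shares depend on the filter, since they include genes of low level. With the filter raised to 1 FPKM, 2675 of 12947 genes were called in either direction, a larger share than 2981 of 19364. The pathway calls stayed at 6 there, so their nearness to the background holds for the main filter only. The excess by adjusted p was not compared at the raised filter. The median log2 fold change of the 41 genes was 0.26, beside 0.15 for all genes tested. The genes that modify or cut the receptors included the called genes Lfng, Poglut1 and Adam10. Lfng, the Fringe glycosyltransferase that adds sugar to the receptors and alters which ligand they answer to, was at 5.70, 5.44, 6.11 and 3.76 FPKM in control and at 15.6, 9.76, 11.2 and 11.9 FPKM in ANG II. The groups were far apart, and its log2 fold change was 1.07 (SE 0.157, limma adjusted p = 0.00072). Adam10, which makes the first cut, was at 27.8, 30.4, 28.8 and 27.9 FPKM in control and at 50.8, 46.6, 47.2 and 43.1 FPKM in ANG II. All 4 ANG II libraries were well above the controls, and the log2 fold change was 0.69 (SE 0.060, limma adjusted p = 4.27e-05), but 0.46 under median-of-ratios scaling, below the threshold. Poglut1, an O-glucosyltransferase of the receptors, barely passed the fold change threshold (0.50, SE 0.093, limma adjusted p = 0.00264) and lost its call without control 2 (0.499) or control 3 (0.47), without ANG II 1 (0.43) or ANG II 3 (0.48), and under the 3 other scalings. In the lists of receptor glycosylation (2 of 5 called) and receptor cleavage (1 of 9 called), 4 and 6 genes were higher by adjusted p, and no gene was lower. In the list of ligand ubiquitination, whose enzymes prepare the ligands in the sending cell, 0 of 4 were called and 1 was higher by adjusted p.

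In the nucleus, Rbpj, the DNA-binding partner of the receptor domain, was at 15.5, 16.2, 14.1 and 15.1 FPKM in control and at 20.4, 21.5, 22.6 and 23.0 FPKM in ANG II. The groups did not overlap, but the log2 fold change, 0.49 (SE 0.065, limma adjusted p = 0.000375), lay just under the threshold. It passed that threshold without control 1 (0.502) or control 2 (0.52) and without ANG II 1 (0.53) or ANG II 2 (0.502). It also passed with a pseudocount of 0.1 (0.52) and with voom on recovered fragments (0.52, chosen after the data had been seen). It was 0.28 after median-of-ratios scaling, 0.26 after quantile normalization and 0.35 without mitochondrially encoded and the top 10 genes. Of its 50-base words, 10.3% also occurred in transcripts of other genes. Maml2, a Mastermind-like coactivator, was the called gene among 7 nuclear activators (0.54, SE 0.087, limma adjusted p = 0.00121), and lost its call without ANG II 1 (0.49) and under the 3 other scalings. None of the 4 nuclear corepressor genes was called, and 1 was higher by adjusted p.

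Among 8 genes of receptor turnover, 2 were called. Numbl, related to the Notch inhibitor Numb, was at 2.35, 1.99, 1.89 and 1.96 FPKM in control and at 5.73, 5.08, 5.16 and 4.90 FPKM in ANG II. The groups were far apart, and its log2 fold change was 1.03 (SE 0.094, limma adjusted p = 5.31e-05). Dtx4, of the Deltex family of ubiquitin ligases, had an adjusted p of 0.0121 by limma at a log2 fold change of 0.57 (SE 0.142), and lost its call without ANG II 4 (0.47) and under the 3 other scalings. Fbxw7, which marks the receptor domain for degradation, was the gene that was lower by adjusted p (-0.30, SE 0.082, limma adjusted p = 0.0171). It was not called as deposited, and its log2 fold change under the other scalings is not given here.

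The other target genes were not called. Hes1 was at 29.7, 25.7, 22.1 and 22.03 FPKM in control and at 36.0, 32.2, 34.1 and 26.5 FPKM in ANG II. The groups overlapped, and the log2 fold change was 0.36 (SE 0.115, limma adjusted p = 0.0357). Its adjusted p stayed under 0.05 without control 1 (0.0133) or ANG II 4 (0.0124) and lay between 0.0548 and 0.0979 without any of the other 6 libraries. It was 0.394 after median-of-ratios scaling (0.14), 0.36 after quantile normalization (0.15) and 0.184 without mitochondrially encoded and the top 10 genes (0.22). Hey2 was at 1.80 to 2.50 FPKM in control and at 1.90 to 2.73 FPKM in ANG II, where the log2 fold change was 0.0016 (95% interval -0.27 to 0.27, limma adjusted p = 0.994) as deposited and -0.16 after median-of-ratios scaling. Nrarp, a feedback inhibitor, was below 0.7 FPKM in every library (log2 fold change 0.03, 95% interval -0.22 to 0.28, limma adjusted p = 0.862), and 79.4% of its exon bases lay under Gm38287 on the opposite strand. Hes5 was listed at 0 in all 8 libraries. The ligands Dll3 and Dlk1 held at most 1 fragment in any library and were not tested, as was Hes7.

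**Figure D4:**
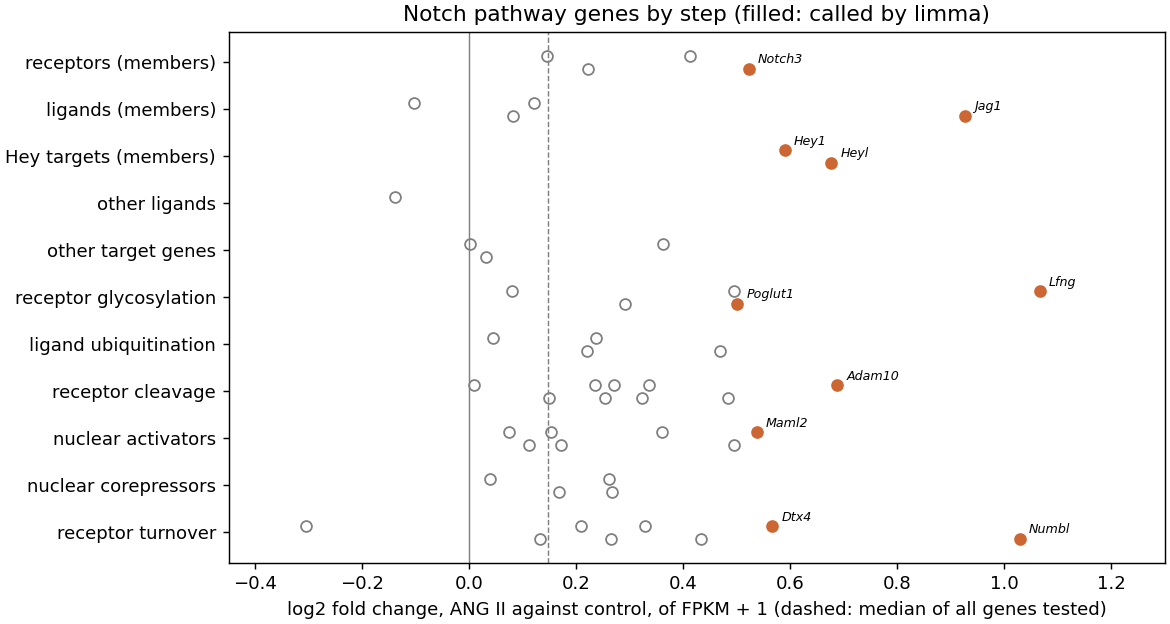
Log2 fold change of FPKM + 1, ANG II against control, of each tested gene of the pathway, in rows by step from receptors to receptor turnover; filled orange points are called genes, open points are not called, and the dashed line is the median of all genes tested (0.15). The 4 called members stand beside 6 called genes of other steps, of which Lfng (1.07) and Numbl (1.03) lie farthest to the right.

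Markers of the cell types that express these genes are given beside them, and their part in the results was not tested. All marker values, here and below, are as deposited, and their calls under the other scalings are not given. Over all genes tested, 14.0% were called higher and 1.41% lower. Of 10 endothelial markers, 1 was called higher (Pecam1, 0.52) and the median log2 fold change was 0.14. Of 8 arterial endothelial markers 5 were called higher, with a median of 0.65, and their summed level was 50.3 to 59.8 FPKM in control and 97.2 to 108 FPKM in ANG II. Fbln5 (1.56) and Unc5b (0.96) changed most in that list, and which cells their transcripts came from was not tested. Of 10 mural markers, for smooth muscle cells and pericytes, 3 were called higher and 1 lower, with a median of 0.14 and a summed level of 572 to 644 FPKM in control and 605 to 671 FPKM in ANG II. Log2 fold changes of the mural markers ranged from -0.55 to 1.18. Cnn1 (1.18) and Cspg4 (0.71) rose, Acta2 had a log2 fold change of -0.20 (limma adjusted p = 0.385), and Tagln was listed at no more than 0.389 FPKM in any library.

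Markers of other cell types differed in how far they moved. Of 8 fibroblast markers 7 were called higher, of 8 macrophage markers 7, and of 8 cycling markers all 8, with medians of 0.75, 1.38 and 1.46. Of 8 cardiomyocyte markers 2 were called lower, with a median of -0.40. Of 5 endocardial markers 1 was called higher (Plvap, 0.75; median of the list -0.03), and of 5 mesothelial markers none was called (median -0.03). Atrial markers moved with the groups: 2 of the 4 tested were called higher, and the list summed to 2.34 to 54.3 FPKM in control and 68.0 to 246 FPKM in ANG II. Myl7 was at 0.205 to 21.1 FPKM in control and 21.7 to 89.6 FPKM in ANG II, highest in ANG II 3. Bmp10, another gene of that list, was at or near 0 in every library. Among the ANG II libraries, Jag1 and Hey1 were also highest in ANG II 3. Dll4 was nearly tied there with ANG II 1 (11.6 and 11.5 FPKM), and Heyl with ANG II 2 (26.4 and 26.5 FPKM). Notch1, Notch2 and Notch3 were lowest in ANG II 3. Without that library the log2 fold changes were 0.85 for Jag1, 0.52 for Hey1, 0.56 for Notch3 and 0.70 for Heyl, and all 4 were still called by limma, while the atrial sum was above that of every control library in the other 3 ANG II libraries too.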

How the data were processed

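The authors deposited 1 table of FPKM with 1 column for each of the 8 libraries. The labels' processing notes name Bowtie2, HISAT and RSEM, with neither role nor version, and the genome build, annotation and use of strand were not given in the sources used here. Of 55679 rows, 27083 were at 0 in all libraries, and 55141 gene IDs were found in GENCODE M21 (GRCm38), which gave positions and lengths. Whole fragments were read from the steps of the FPKM values (99.4% of values under 60 fragments were whole within 0.1 fragment for single-exon genes and 98.1% for genes with more exons). These fragments differ between libraries by counting error and by the spread between samples.

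Groups were taken from the treatment labels, which do not say that each sample came from its own animal, so p-values measure the spread between these samples. The study's methods describe more biological replicates per group than the libraries analysed here, and how the libraries relate to those replicates was not given in the sources used here. Log2(FPKM + 1) of all 8 libraries was fitted in limma 3.58.1 (R 4.3.3; lmFit, then eBayes with its variance trend on) without covariates, after leaving out genes whose mean was below 0.1 FPKM, which kept 19364. P-values were two-sided with Benjamini-Hochberg adjustment over all genes tested. The study names limma and the thresholds used, while the pseudocount and the filter were choices made here. Fold changes on this scale understate those of low genes. Ratios were compared by exact permutation tests (scipy 1.17.1, Python 3.11.15).

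The 10 genes and all gene lists were chosen with earlier results of these data known. Named are the 10 genes, Hey2, Hes1, Hes5, Nrarp, Rbpj, Dll3 and Dlk1, up to 3 called genes of each other pathway list, and of each marker list at most the 2 most abundant and the 2 called genes with the largest change. Fbxw7, Hes7, Tagln and Bmp10 are named outside this rule, after their values were seen. Alternatives changed the pseudocount, filter, scaling, variance trend, replicate block, fold change threshold or 1 library left out; voom (in limma) on recovered fragments was added after the data had been seen. The proteins of the Hey targets were not analysed here.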

Additional observations from a re-analysis of the deposited data

Results flagged for a closer look

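In 40 groups of 4 libraries, made of 20 genes in each condition (the 10 genes, Hey2, Hes1, Nrarp, Rbpj and the 6 other called pathway genes), 3 libraries stood apart from the other 3 of their group by the gap to the nearest value over the whole range. Chance alone would flag about 1 group in 20. Notch4 was at 49.1 FPKM in ANG II 1 and at 36.1 to 38.1 FPKM in the other ANG II libraries. Dll4 was at 13.1 FPKM in control 1 and at 9.84 to 10.4 FPKM in the other control libraries. Hey1 was at 11.3 FPKM in control 1 and at 8.14 to 8.66 FPKM in the other control libraries, and without control 1 its log2 fold change was 0.68 with no overlap between the groups.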

How the results depend on the processing

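Counts moved with both the fold change threshold and the scaling of the libraries. The count of called genes among the 10 fell from 4 to 1 under both quantile normalization and median-of-ratios scaling (Jag1 in each) and to 2 (Jag1 and Heyl) without mitochondrially encoded and the top 10 genes; it was 0 above an absolute log2 fold change of 1. For the other pathway genes it went from 6 to 3 under median-of-ratios scaling, 4 under quantile normalization and 3 without mitochondrially encoded and the top 10 genes. Of the 6, Lfng and Numbl kept their calls under all 3 scalings, and Adam10 under all but median of ratios. The counts under median of ratios and quantile thus include a gene that was not called as deposited, whose direction is not given here. The count for these genes was 22 with no fold change threshold and 2 above 1. It was 9 with a pseudocount of 0.1, 9 with voom on recovered fragments and 5 to 9 with 1 library left out (9 without control 2 or ANG II 2). Over all genes the count went from 2981 to 6447 with no threshold, 795 above 1, 2475 under median of ratios, 2399 under quantile and 2512 without mitochondrially encoded and the top 10 genes. Log2 fold changes turned negative for Notch1 (-0.078 under median of ratios, -0.0312 under quantile), Notch4 (-0.00063 under median of ratios), and, under median of ratios, quantile and without mitochondrially encoded and top 10 genes in that order, for Jag2 (-0.104, -0.0503, -0.0238), Dll1 (-0.116, -0.216, -0.045), Hey2 (-0.155, -0.298, -0.10) and Nrarp (-0.0403, -0.109, -0.0148). With 1 library left out, 3 to 4 of the 10 genes were called, and values ranged from -0.0476 to 0.237 for Dll1, from -0.0688 to 0.0525 for Hey2 and from -0.0346 to 0.0859 for Nrarp, from -0.169 to -0.0059 for Dll4, from 0.124 to 0.269 for Notch4 and from 0.0626 to 0.191 for Jag2; none of these 6 genes was called with any 1 library left out. With the longest coding transcript the share of Jag1 rose by 10.9 percentage points (6.17 as deposited) and that of Dll4 changed by -6.45 points (-2.92 as deposited, and -1.84 without ANG II 4). The replicate numbers did not pair the libraries, since deviations of same-numbered libraries correlated at -0.0163, 0.062, -0.032 and -0.0093. With the replicate block, 4 of the 10 genes and 6 other pathway genes were called, the same counts as without it. Lfng, Numbl and Jag1 were called in all 17 alternatives of scaling, filter, pseudocount, test and library left out, at the fold change threshold of 0.5. With 4 libraries per group, and as few as 86 fragments for Dll1, an interval such as -0.36 to 0.53 does not show that a gene was unchanged. The cause of these shifts was not tested.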
